A study of Macaca mulatta with 102 samples.

Results

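The 10 arrays described here are the blood T cells of 5 rhesus macaques given KY1005 with sirolimus, each animal measured at day 14 (group KY1005.Siro.D14) and again at day 28 (KY1005.Siro.D28) after haematopoietic cell transplantation. They were chosen by their group labels, 10 of the 102 arrays of the series, and animals R.217, R.218, R.219, R.220 and R.221 each gave 1 array on each day, all in the batch labelled 6. Other groups of the series received an allogeneic or an autologous transplant under other regimens or were healthy and untransplanted, and 7 of the 46 healthy arrays also lie in batch 6. The labels give no age, no conditioning and no clinical state at sampling, and they assign the preventive drug treatments to the allogeneic recipients.

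After an allogeneic transplant, donor T cells can attack the tissues of the recipient, which is graft-versus-host disease. OX40 (TNFRSF4) is a receptor that appears on T cells after activation, and its ligand OX40L (TNFSF4), found mainly on antigen-presenting cells, prolongs the survival and division of those T cells through TRAF adaptors and NF-kB. KY1005 is an antibody that blocks OX40L. Sirolimus inhibits mTOR, the kinase that couples growth signals to protein synthesis and the cell cycle. The pair of samples asks how the T cell transcriptome of an animal differed between these 2 days after transplantation.

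No gene passed the test between day 28 and day 14. With limma, the animal as a block and Benjamini-Hochberg adjustment over 31710 probe sets, 0 had an adjusted p under 0.05 (0%), and the smallest adjusted p was 0.54. At an unadjusted p under 0.05 there were 2912 probe sets (9.18%), 878 lower at day 28 (2.77%) and 2034 higher (6.41%). That count was 1358 without R.217, 1805 without R.221 and 847 with an RNA quality ratio as a covariate, with 0 adjusted calls in each. Over the 10718 named genes, 1 probe set each, the corresponding counts were 660 genes (6.16%), 360 lower (3.36%) and 300 higher (2.8%). Values are log2 signal after robust multi-array averaging, and every difference below is day 28 minus day 14 on that scale. The 95% interval of a difference reached a median of 0.338 to either side over the genes tested, and from 0.256 to 0.656 between the 5th and 95th percentiles, so with 5 pairs of arrays a miss of the threshold does not show that a gene stayed level. Every gene named below therefore has an adjusted p of at least 0.54 in this test, and the values are given for their size and for how many animals share the direction.

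The genes with the smallest p in the lower direction were inflammatory and monocyte-associated genes, and those in the higher direction were a mixed set that included the T cell receptor-associated CD6 and the nuclear receptor NR4A2. In order of unadjusted p, the 10 lower genes that shared the direction in all 5 animals were TGFBI, CEBPD, FCN1, LYZ, IL1B, NLRP3, DHRS9, NAIP, IL6 and KLF4. The 10 higher genes were NR4A2, INSL4, MKLN1, ITFG2, JUND, CD6, HNF4G, LYL1, METTL16 and HBA. None of the 20 passed after adjustment. Over all 10718 genes, 601 (5.61%) were lower in all 5 animals and 337 (3.14%) were higher in all 5. Day 14 and day 28 did not overlap for 101 genes lower at day 28 (0.942%) and 66 genes higher (0.616%).

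LYZ, the lysozyme of monocytes and granulocytes, was at 10.64, 7.88, 8.16, 8.95 and 10.10 at day 14 in R.217 to R.221 and at 8.32, 6.55, 3.77, 7.05 and 8.32 at day 28. Every animal was lower on the later day, and R.219 had the largest difference, -4.38. The mean difference was -2.34 ± 0.39 (SE, n = 5 animals; 95% interval -3.25 to -1.44), or 5.07-fold lower. FCN1, the ficolin of monocytes, went from 10.19, 6.60, 6.85, 7.64 and 8.45 to 7.62, 5.89, 4.38, 6.18 and 7.11, a mean difference of -1.71 ± 0.27. All 5 day 14 values of FCN1 lay above the highest healthy array of batch 6, which was 6.18, whereas at day 28 R.218 and R.219 lay below it and R.220 was level with it. A second probe set of FCN1 gave a difference of -0.15 and was lower in 3 of 5 animals. TGFBI, a secreted matrix protein abundant in monocytes, had day 14 values from 6.02 to 8.18 and day 28 values from 4.33 to 6.26. Its mean difference was -1.98 ± 0.26, and its unadjusted p of 6.36e-05 was the smallest among the named lower genes. CEBPD, a transcription factor of myeloid differentiation, was between 6.50 and 8.58 at day 14 and between 4.38 and 6.33 at day 28, so its days did not overlap.

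IL1B, the inflammatory cytokine interleukin-1 beta, was at 9.60, 7.21, 8.40, 8.10 and 6.18 at day 14 and at 7.95, 6.15, 5.10, 5.66 and 5.09 at day 28. Its mean difference was -1.91 ± 0.32 (3.75-fold lower), and its other 2 probe sets gave -2.31 and -2.89, each lower in 5 of 5 animals. At day 14, 4 of the 5 animals were above the healthy maximum of 6.59 in batch 6, and at day 28 only R.217 was. NLRP3, the sensor of the inflammasome that matures interleukin-1 beta, had a mean of 7.21 at day 14 and 5.43 at day 28 (difference -1.79 ± 0.32). NAIP, a related sensor of bacterial proteins, differed by -0.96 ± 0.18. DHRS9, a short-chain dehydrogenase, differed by -0.74 ± 0.13 and its days did not overlap.

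IL6, the cytokine interleukin-6, was at 6.56, 4.17, 5.66, 4.31 and 3.80 at day 14 and at 4.02, 3.21, 3.41, 3.20 and 3.16 at day 28. The healthy arrays of batch 6 ran from 3.26 to 3.56; all 5 animals were above them at day 14, and at day 28 only R.217 was. The mean difference was -1.50 ± 0.29, and the second probe set of the gene gave -2.01. Both day means, 4.90 and 3.40, lie under 5.21, the median of all values, so the gene was dim on these arrays. When the spread was estimated from all 16 groups with batch as a factor, both IL6 probe sets and 1 probe set without a gene name passed. Their adjusted p ran from 0.00163 to 0.0192 in limma, and from 0.000326 to 0.00456 with the animal as a random block. The first of these fits leaves out the pairing by animal, and both take a common spread over all groups. In the arrays compared here the SD of IL6 was 1.17 at day 14 and 0.36 at day 28. With the animal as a fixed block in all 16 groups, 0 probe sets passed.

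**Figure D1:**
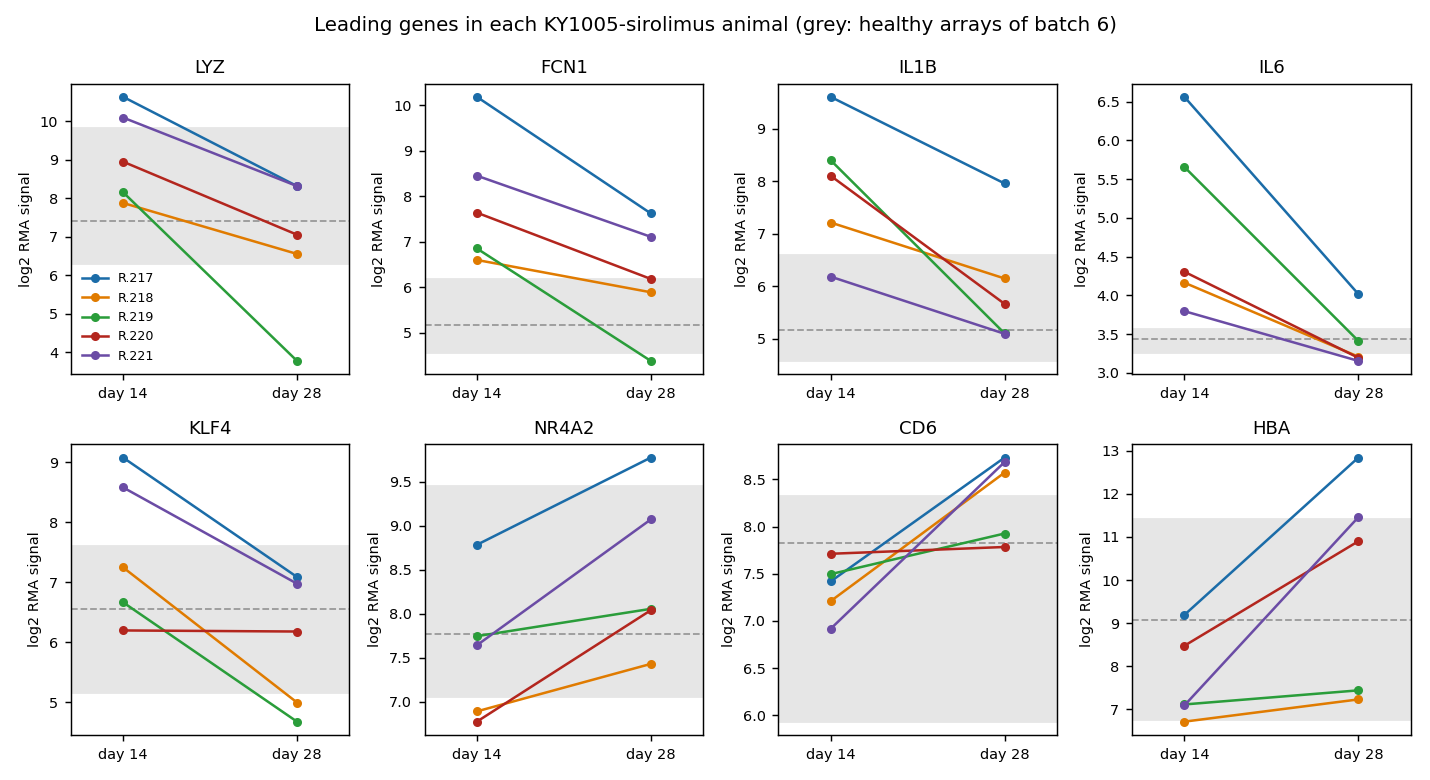
Log2 signal (vertical axes) of 8 genes at day 14 and day 28, with 1 line per KY1005-sirolimus animal; the grey band is the range and the dashed line the median of the 7 healthy arrays of batch 6. LYZ, FCN1, IL1B, IL6 and KLF4 were lower at day 28 in all 5 animals, KLF4 with a difference of -0.02 in R.220, and NR4A2, CD6 and HBA were higher in all 5.

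Of the 10 lower genes, FCN1 and LYZ are also on the marker list for monocytes and other myeloid cells, of which 14 of 17 genes were measured. In that list 0 genes passed after adjustment, 7 were lower and 0 higher at an unadjusted p under 0.05, against 3.36% and 2.8% of all genes. The median difference of the list was -0.877, against -0.0286 over all genes tested. It was -1.01 in R.217, -0.426 in R.218, -0.915 in R.219, -0.678 in R.220 and -0.505 in R.221. CD14, the lipopolysaccharide co-receptor of monocytes, differed by -0.84 ± 0.22 and was lower in 5 of 5 animals. VCAN, a proteoglycan made by classical monocytes, differed by -1.66 ± 0.53, also in 5 of 5. The alarmins S100A8 and S100A9 differed by -1.66 ± 0.61 and -1.62 ± 0.74, in both cases with R.219 far beyond the other animals (-4.92 and -5.53). CSF1R, the receptor for macrophage colony-stimulating factor, differed by -0.92 ± 0.33 with -2.65 in R.217, and AIF1 by -0.35 ± 0.13 (-1.62 by its second probe set). SERPINA1 and CD68 were the other way on average, at 0.26 ± 0.22 and 0.13 ± 0.30. The other SERPINA1 probe sets were higher too, at 0.52, 0.49, 0.625 and 0.28, whereas a second CD68 probe set gave -0.81. CSF1R, AIF1, CD14, S100A8, S100A9, SERPINA1, CD68 and VCAN were picked for naming after their values had been seen.

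The cells were sorted for CD3, a gate that leaves monocytes out, so the level of the list is given by array. The mean over its 14 genes was 8.52, 7.31, 7.05, 7.64 and 7.60 at day 14 and 7.27, 6.94, 5.30, 6.81 and 7.21 at day 28, where the healthy arrays of batch 6 ran from 5.77 to 7.18. It was lower in 5 of 5 animals, with an exact two-sided sign-flip p of 0.0625, the smallest that 5 pairs can give, and 0.229 after adjustment over 11 array scores. In bulk samples, fewer cells of a type and less RNA per cell cannot be told apart. With this level as a covariate the difference of LYZ was -0.63, of IL1B -0.64 and of FCN1 -0.60, all with adjusted p of at least 0.64 in limma. LYZ and FCN1 are themselves members of the list. The level was lower at day 28 in all 5 animals, so the fit separates it poorly from the day. The cause of the smaller differences was not tested. Near day 100, 4 of the animals were sampled once more: LYZ was at 11.66 in R.219, 10.98 in R.220 and 10.76 in R.221, and at 5.70 in R.217. IL6 was between 3.15 and 3.41 in the same 4 arrays. The markers of dendritic cells were also lower in 5 of 5 animals, with a mean level of 6.53 at day 14 and 6.26 at day 28, on only 3 measured genes. Of these IRF8, an interferon regulatory factor, differed by -0.79 ± 0.18 (-0.19 by its second probe set), CLEC10A by -0.21 ± 0.12 and CD1C by 0.16 ± 0.20, CD1C being higher in 3 of 5.

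Measures of RNA quality and red cell transcripts also differed between the days in most animals, and none passed its test. The log2 ratio of the 3' to the 5' actin control probe set, which is higher where RNA is degraded or amplified from its 3' end, was 1.10, 0.881, 0.951, 0.522 and 2.00 at day 14 and 0.400, 0.241, 0.391, 0.925 and 0.471 at day 28. It was lower in 4 of 5 animals, all but R.220, with an exact two-sided sign-flip p of 0.125 (0.229 adjusted). The healthy arrays of batch 6 had a median of 0.505, a minimum of 0.406 and a maximum of 3.95. The GAPDH ratio was lower in 5 of 5, with a difference of -0.0189 in R.220 (exact p 0.0625, 0.229 adjusted). HBA, an alpha globin whose near-identical copies the probe set cannot separate, was at 9.19, 6.71, 7.11, 8.47 and 7.09 at day 14 and at 12.84, 7.23, 7.44, 10.90 and 11.46 at day 28. HBB, the beta globin, differed by 1.14 ± 0.32, higher in 4 of 5. Of the 7 measured erythroid genes, 6 were higher on average, with a list median of 0.448. By animal the median was 1.54 in R.217, 0.116 in R.218, 0.00122 in R.219, 0.211 in R.220 and -0.097 in R.221, and the list median was -0.0128 without R.217. The mean level of the list was higher in 4 of 5 animals (exact two-sided sign-flip p 0.125, 0.229 adjusted).

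The mean level of 9 measured core T cell genes ran from 9.64 to 9.90 at day 14 and from 9.79 to 10.2 at day 28, and the healthy arrays of batch 6 from 9.66 to 10.1. It differed by 0.186 on average and was higher in 4 of 5 animals, with an exact two-sided sign-flip p of 0.125 (0.229 adjusted). None of the CD3 chain genes was among the 10718 genes tested, so the sort is checked by CD4, CD5, CD6, CD7, CD8A, CD8B, LAT, TRAT1 and ZAP70. The B cell list was at 5.23 to 5.64 at day 14 and 5.16 to 5.56 at day 28. Plasma cell markers ran from 6.44 to 6.70 and then from 6.38 to 6.60. The NK cell list ran from 8.04 to 9.20 and then from 8.11 to 9.12, the granulocyte list from 4.87 to 5.43 and then from 4.68 to 5.38, and the platelet list from 5.85 to 7.61 and then from 5.54 to 7.06. The days overlapped in all of these.

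**Figure D2:**
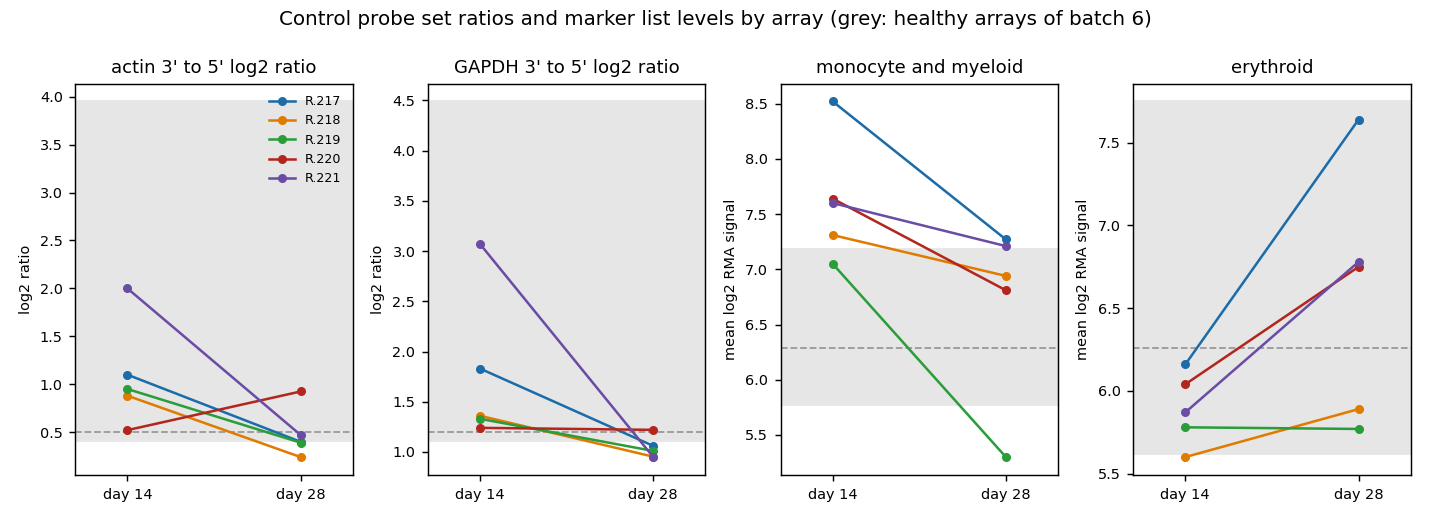
The 4 panels plot, for each animal at day 14 and day 28, the log2 ratio of the 3' to the 5' control probe set for actin and for GAPDH and the mean log2 signal of the myeloid and erythroid marker lists; the grey band is the range and the dashed line the median of the 7 healthy arrays of batch 6. The actin ratio was lower at day 28 in all animals but R.220, and R.221 had the highest day 14 ratios (2.00 and 3.07).

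Among the higher genes, NR4A2, an orphan nuclear receptor induced early after stimulation, was at 8.78, 6.89, 7.75, 6.77 and 7.64 at day 14 and at 9.78, 7.43, 8.06, 8.04 and 9.07 at day 28. Its mean difference was 0.91 ± 0.18 (1.88-fold), 2 more of its 5 probe sets gave 0.79 and 0.88 in 5 of 5 animals, and the dimmest pair gave -0.19 and -0.05. CD6, a T cell surface receptor that binds ALCAM and tunes activation, was at 7.42, 7.21, 7.50, 7.71 and 6.92 and then at 8.73, 8.57, 7.93, 7.78 and 8.68. Its days did not overlap, although R.220 differed by only 0.07, and the mean difference was 0.99 ± 0.25. Its other probe sets gave 0.56 in 5 of 5 animals and 0.81 in 4 of 5. ITFG2, a subunit of the KICSTOR complex that restrains mTOR when amino acids are scarce, had means of 9.46 and 10.06 with no overlap (0.61 ± 0.14), but its second probe set, about as bright, gave 0.14 and was lower in 3 of 5 animals. MKLN1, an intracellular protein of an E3 ligase complex, had means of 9.63 and 10.40 with no overlap, but its second probe set gave -0.18. JUND, an AP-1 subunit, differed by 0.63 ± 0.16, LYL1, a basic helix-loop-helix factor, by 0.75 ± 0.19, and METTL16, an RNA methyltransferase, by 0.63 ± 0.16. INSL4 (0.58 ± 0.12) and HNF4G (0.56 ± 0.14) carry names from the platform annotation, which can be old, and a second HNF4G probe set gave -0.04.

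Among the higher genes the largest difference was most often in R.221, the animal with the widest differences over all probe sets. Its actin ratio also differed most, and a link between these was not tested. Of the 300 genes higher at an unadjusted p under 0.05, 205 (68.3%) had their largest difference in R.221 and 46 (15.3%) in R.217. Of the 360 lower genes, 153 (42.5%) had it in R.221 and 138 (38.3%) in R.217. The same share over all genes was not computed. Over all probe sets tested, the SD of the differences was 0.716 in R.221, 0.516 in R.217 and 0.351 to 0.391 in the other animals. R.221 had 895 genes past 2-fold between its days (8.35%), R.217 had 451, R.219 193, R.218 102 and R.220 88. With the actin ratio as a covariate the median of the 300 higher genes was 0.242 in place of 0.491, and 295 kept their sign. The median of the 360 lower genes was -0.299 in place of -0.424, and all 360 kept theirs. Both sets were picked by the main fit to these same arrays, so smaller medians and kept signs can follow from that choice. The ratio was also lower at day 28 in all animals but R.220, so the fit separates it poorly from the day. The cause of the smaller medians was not tested. CD6 was at 0.44 and MKLN1 at 0.47 with that covariate, whereas NR4A2 was at 0.86, LYZ at -2.41 and IL1B at -2.36.

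Genes of messenger RNA translation and splicing are given next, without and with the actin ratio as a covariate. Of 18 measured translation factors 15 were higher on average, 4 at an unadjusted p under 0.05 and 0 lower, with a median of 0.156; of 26 splicing factors 19 were higher, 4 at that p and 0 lower, with a median of 0.142. Over all genes 2.8% were higher and 3.36% lower at that p. EIF5A, the hypusine-modified elongation factor, was at 5.98, 8.69, 8.80, 9.25 and 5.82 at day 14 and at 8.94, 9.98, 9.72, 8.79 and 8.15 at day 28. The low day 14 values were those of R.217 and R.221, and R.220 alone was lower at day 28. EIF2S3, a subunit of the initiation factor eIF2, differed by 2.10 in R.221 and -0.31 in R.220, and HNRNPC, an RNA-binding splicing regulator, by 2.35 and -0.45. The mean difference of EIF2S3 was 0.79, but its other probe sets gave 0.28 and -0.05. TRA2A, another splicing factor, differed by 1.66 in R.221 and 0.08 in R.220, with a mean of 0.68, and its second probe set gave 1.43. With the actin ratio as a covariate, EIF5A was at 0.47, EIF2S3 at 0.04, HNRNPC at 0.05 and TRA2A at 0.19. Both list medians were under 0.1 (0.0104 and 0.0558). In that fit 1 of the translation factors and 0 of the splicing factors were at an unadjusted p under 0.05. These 4 genes were picked after their values had been seen.

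Division genes were lower in 4 of the animals and higher in R.219. Of 19 measured cell cycle genes 18 were lower on average, 3 of them at an unadjusted p under 0.05 and 0 higher, against 3.36% and 2.8% of all genes, with a median of -0.346. That median was -0.210 with the actin ratio as a covariate, -0.110 with the GAPDH ratio and -1.05 with the myeloid level. Each of these covariates was lower at day 28 in at least 4 of 5 animals, so the fits separate them poorly from the day. The median was -0.477 in R.217, -0.680 in R.218, 0.424 in R.219, -0.308 in R.220 and -0.729 in R.221. A split of R.219 against the other 4 was seen in 11 of the 19 genes (57.9%), and in 960 of all 10718 (8.96%). This split has the same signs as the medians by animal, so its count describes the list and is not a test. TOP2A, the topoisomerase of dividing cells, was at 7.34, 8.02, 7.17, 6.48 and 7.41 at day 14 and at 5.93, 6.26, 7.52, 6.23 and 6.52 at day 28 (difference -0.79 ± 0.29). MKI67, the proliferation antigen Ki-67, was at 6.52, 7.02, 6.12, 6.15 and 7.23 and then at 5.85, 6.00, 6.99, 5.84 and 5.62 (-0.55 ± 0.31). Its other probe sets, both dimmer, gave -0.19 and -0.01. MCM3, a subunit of the replicative helicase, differed by between -0.92 and -0.77 in 4 animals and by 0.37 in R.219. PCNA, the sliding clamp of DNA polymerase, differed by -0.49 ± 0.23, TYMS, thymidylate synthase, by -0.81 ± 0.41, and CCNB2, a mitotic cyclin, by -0.66 ± 0.36, each higher only in R.219. CCNA2, the S-phase cyclin, was lower in 4 of 5 (-0.36 ± 0.13). A second TYMS probe set gave only -0.16 and was lower in 3 of 5, whereas second probe sets of TOP2A and CCNA2 gave -0.69 and -0.53. The day 14 mean lay above the healthy maximum of batch 6 for 7 of the 19 genes, the day 28 mean for 1. For the interferon list these counts were 9 and 7 of 19, and for OX40 and NF-kB signalling 9 and 7 of 23. The share of all genes above that maximum is not given here, so the counts have no background to be judged against. Without R.219 the median was -0.492 and 12 genes were lower at an unadjusted p under 0.05, with 0 calls after adjustment. Without R.217 or R.218 that count was 0, without R.221 it was 1. Over all probe sets, the count at that p in either direction also moved. It was 4034 without R.219, 1358 without R.217, 1982 without R.218 and 1805 without R.221. Only R.219 had a median above 0, so leaving it out favours a lower median by that choice. R.219 was looked at on its own after the values had been seen.

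Interferon-stimulated genes went in opposite directions in different animals. Of 19 measured, 16 were lower on average with a median of -0.300, but the medians by animal were -1.51 in R.217, -0.334 in R.218, 1.05 in R.219, -0.955 in R.220 and 0.358 in R.221. Lower in R.217 and R.220 and higher in R.219 were 17 of the 19 (89.5%), against 2789 of all genes (26%). That pattern repeats the signs of the list medians just given, so the count describes the list and is not a test of it. IFIT1, an RNA-binding antiviral protein, was at 8.73, 7.08, 5.91, 8.93 and 6.24 at day 14 and at 5.77, 6.06, 8.82, 5.84 and 7.83 at day 28. The 2 highest arrays of day 14, R.217 and R.220, were the lowest at day 28, and the lowest of day 14, R.219, was the highest. MX1, the dynamin-like antiviral GTPase, differed by -3.01 in R.217 and 2.45 in R.219, ISG15, a ubiquitin-like modifier, by -2.14 and 2.44, and IFI27 by -4.07 and 2.12. The 95% interval of IFIT1 ran from -2.50 to 1.47, so the average over animals says little of any 1 of them. OAS1, an oligoadenylate synthetase, differed by 0.30 ± 0.12, higher in 4 of 5, but its other 3 probe sets gave -0.45, -0.41 and 1.03, so the gene has no settled direction here. With R.217 left out the list median was 0.100.

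**Figure D3:**
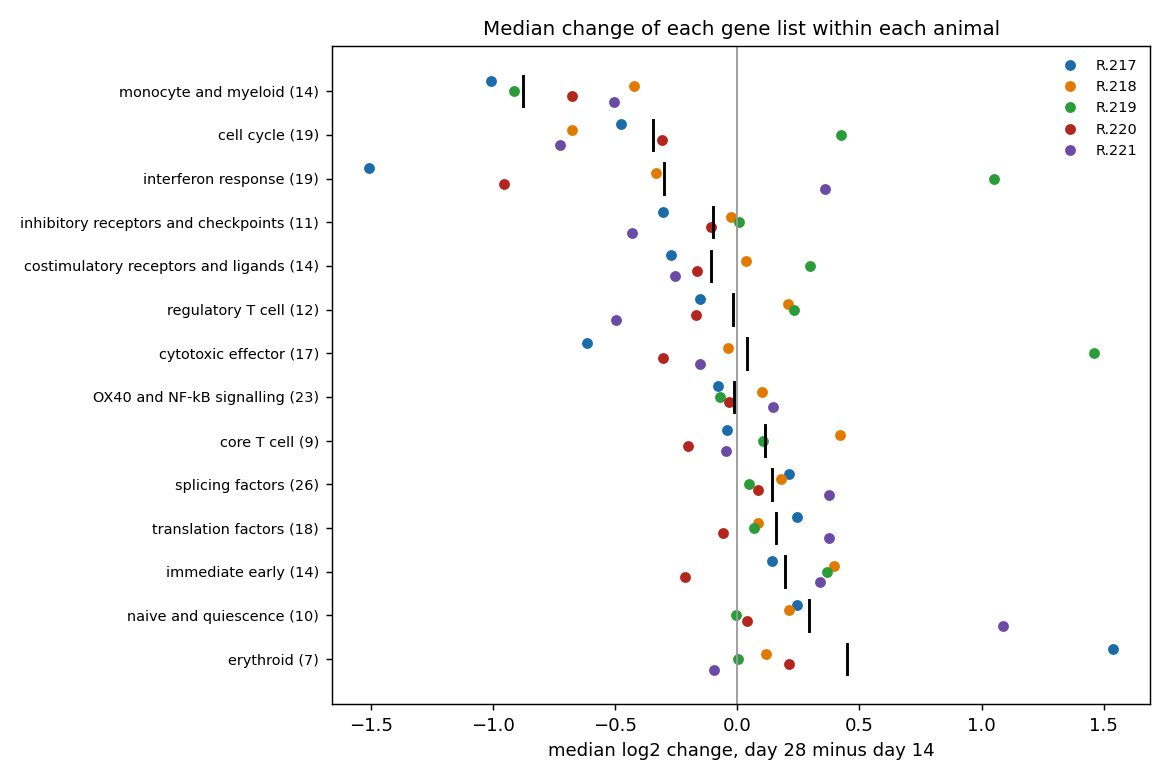
Each row is a gene list with the number of its measured genes, the points are the median log2 difference, day 28 minus day 14, in each of the 5 animals, and the black bar is the median of the genes' mean differences. The myeloid list is below 0 in every animal, while the interferon list runs from -1.51 in R.217 to 1.05 in R.219 and the cytotoxic list reaches 1.46 in R.219.

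Neither OX40 nor its ligand OX40L, which KY1005 blocks, nor any measured gene of their pathway passed the test. TNFRSF4, OX40 itself, was at 8.51, 8.37, 7.52, 8.24 and 8.90 at day 14 and at 8.10, 8.42, 8.37, 8.21 and 7.87 at day 28. The animals were closer together on the later day, and the mean difference was -0.11 ± 0.24 (95% interval -0.67 to 0.44). The healthy arrays of batch 6 ran from 7.60 to 8.23. TNFSF4, OX40L, was between 5.67 and 6.36 at day 14 and between 5.40 and 5.98 at day 28, a difference of -0.23 ± 0.12, lower in 4 of 5. Of 23 measured genes of OX40 and NF-kB signalling, 2 were higher and 0 lower at an unadjusted p under 0.05, against 2.8% and 3.36% of all genes, and the median was -0.0124. NFKB2, the p100 precursor of the noncanonical pathway, was at 8.19, 6.37, 8.11, 7.96 and 6.82 and then at 9.17, 7.60, 8.57, 7.52 and 8.75 (0.83 ± 0.30). Its other 2 probe sets gave -0.23 and 0.02. REL, the c-Rel subunit of activated lymphocytes, differed by 2.11 in R.221 and by 0.00 to 0.61 in the other 4 (0.68 ± 0.28). With the actin ratio as a covariate the difference was 0.08 for NFKB2 and 0.24 for REL, and with the GAPDH ratio 0.18 and 0.03.

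Among the costimulatory molecules, CD40LG, the CD40 ligand of helper T cells, was at 8.74, 8.66, 7.97, 8.17 and 8.77 and then at 7.59, 8.33, 8.18, 7.97 and 8.10 (-0.43 ± 0.19, 95% interval -0.87 to 0.02). At day 28 all 5 animals were below the lowest healthy array of batch 6, 8.66. Its other 2 probe sets, both dimmer, gave -0.01 and 0.27, and the mean over its probe sets was -0.06. CD28, the main costimulatory receptor, differed by 0.64 ± 0.29, higher in 3 of 5 animals. None of the 14 measured genes of this list was at an unadjusted p under 0.05, and the median was -0.108. Of 11 inhibitory receptors and checkpoint genes, 2 were lower and 1 higher at that p, against 3.36% and 2.8% of all genes, with a median of -0.100. LAG3, an inhibitory receptor that binds MHC class II, was at 8.61, 8.15, 7.76, 7.02 and 9.50 at day 14 and at 7.31, 7.67, 7.60, 6.74 and 7.62 at day 28 (-0.82 ± 0.26). BTLA, the receptor for HVEM, differed by -0.42 ± 0.11, also lower in 5 of 5, and VSIR, the checkpoint VISTA, by 0.53 ± 0.22, higher in 4 of 5. With the actin ratio as a covariate the difference was -0.31 for LAG3, -0.43 for BTLA and 0.06 for VSIR. LAG3, BTLA, VSIR and CD28 were named after their values had been seen.

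FOXP3, the master regulator of regulatory T cells, was at 5.05, 4.85, 4.87, 5.15 and 5.67 at day 14 and at 5.26, 5.39, 4.87, 5.31 and 5.08 at day 28, both means under the median of all values. Its difference was 0.06 ± 0.17 (95% interval -0.32 to 0.45). None of the 12 measured genes of the regulatory list was at an unadjusted p under 0.05, and their median was -0.0204. IL10, the anti-inflammatory cytokine counted in it, differed by -0.46 ± 0.21. CD4 differed by 0.33 ± 0.20 and CD8A by -0.17 ± 0.13, and for CD8A the mean of its 2 probe sets was 0.18.

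Cytotoxic genes separated R.219 from the other animals again. GZMB, granzyme B, was at 13.25, 13.46, 11.99, 12.01 and 12.65 and then at 12.44, 13.33, 13.42, 11.70 and 12.71, a mean difference of 0.05 ± 0.28. R.219 differed by 1.43 and R.217 by -0.80. IFNG, interferon gamma, differed by 1.88 in R.219 and by -1.16 in R.221, with a mean of -0.05 ± 0.38 and day means of 5.01 and 4.96. The median of 17 measured cytotoxic genes was 0.0404 over the means, 1.46 in R.219 and between -0.618 and -0.0408 in the other 4. In R.219, 11 of the 17 were past 2-fold higher, against 133 of all 10718 genes. This count follows from the high median in R.219, so it describes the list and is not a test. In that animal the myeloid level differed by -1.75, the largest of the 5. The naive and quiescence list had 10 of 10 measured genes higher on average, 0 at an unadjusted p under 0.05, and a median of 0.292, against -0.0286 over all genes tested. It was 1.09 in R.221 and between -0.00682 and 0.242 in the others, 0.0911 without R.221, and 0.00827 with the actin ratio as a covariate. CCR7, the lymph node homing receptor, was at 9.69, 9.68, 10.20, 10.77 and 9.01 and then at 10.17, 10.46, 10.26, 9.83 and 10.20 (0.31 ± 0.28), and at -0.37 with that covariate.

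**Figure D4:**
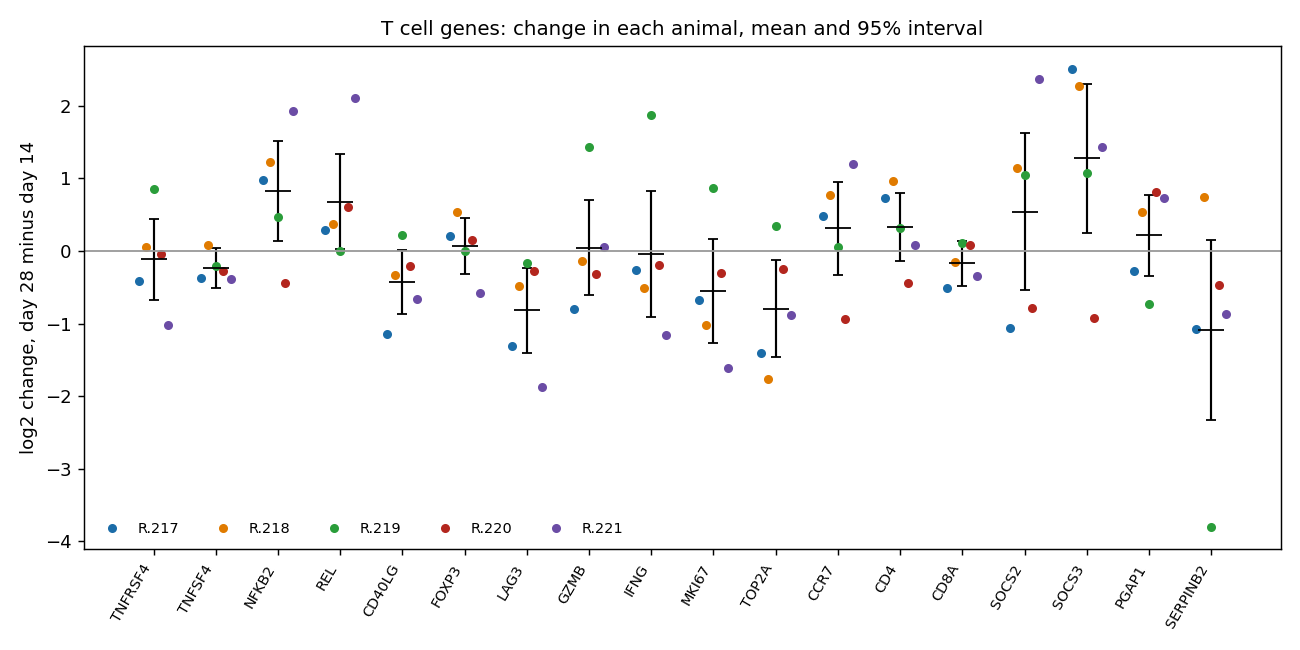
Log2 difference, day 28 minus day 14, for 18 T cell genes; points are the 5 animals, the black bar is the mean and the whiskers its 95% interval from limma. LAG3 is below 0 in every animal, GZMB, IFNG and MKI67 are highest in R.219, and REL is highest in R.221 (2.11).

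Immediate early genes, which are transcribed within minutes of stimulation or handling, were split. Of 14 measured, 4 were lower and 4 higher at an unadjusted p under 0.05, against 3.36% and 2.8% of all genes. KLF4, a zinc finger factor also abundant in monocytes, was at 9.08, 7.25, 6.67, 6.20 and 8.58 and then at 7.09, 4.99, 4.67, 6.18 and 6.98 (-1.57 ± 0.30). NR4A1 (-0.45 ± 0.14), ATF3 (-0.58 ± 0.22) and EGR2 (-0.76 ± 0.27) were the others lower, each a transcription factor of the early response; a second ATF3 probe set gave -0.04. FOS, the AP-1 subunit, was at 8.89, 6.68, 7.81, 8.98 and 8.73 and then at 11.32, 7.78, 10.26, 8.51 and 8.95 (1.14 ± 0.43), higher in 4 of 5. KLF6 differed by 0.52 ± 0.18 (0.20 with the actin ratio as a covariate), and NR4A2 and JUND complete the higher set. SOCS3, the feedback inhibitor of STAT3 cytokine signals, was at 5.06, 4.83, 5.94, 6.42 and 4.70 and then at 7.57, 7.11, 7.02, 5.50 and 6.13 (1.28 ± 0.44, 95% interval 0.25 to 2.30). It was higher in all animals but R.220, and its difference was 0.47 with the actin ratio as a covariate. Above the healthy maximum of 5.69 were R.219 and R.220 at day 14 and all animals but R.220 at day 28. CISH, a STAT5-induced member of the same family, differed by -0.64 ± 0.28, lower in 4 of 5, and was named after its value had been seen. SOCS2, another STAT5 target, ran from -1.06 in R.217 to 2.37 in R.221 (0.54 ± 0.47), and on both days every animal but R.221 at day 14 was above the healthy maximum of 7.29. The 10 measured genes of the list of SOCS family and STAT5 targets had a median of 0.0563, 1 lower and 1 higher at an unadjusted p under 0.05, against 3.36% and 2.8% of all genes.

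PGAP1, an enzyme that remodels glycosylphosphatidylinositol anchors, was at 10.13, 9.37, 10.81, 9.86 and 9.92 and then at 9.85, 9.91, 10.08, 10.68 and 10.65 (0.21 ± 0.24). All 10 values lay above the healthy maximum of 7.95 in batch 6. SERPINB2, plasminogen activator inhibitor 2, was at 8.30, 3.46, 6.78, 6.58 and 7.09 and then at 7.23, 4.20, 2.98, 6.11 and 6.22 (-1.09 ± 0.54). R.219 reached the healthy range of 2.28 to 3.13 at day 28, and the other 4 stayed above it. The remaining 14 of the 35 lists, among them those for metabolism, ribosomal proteins, the proteasome, homing receptors and apoptosis, had medians between -0.0571 and 0.155 and 0 calls.

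A second regimen with sirolimus gave a comparison over about the same days. In 3 animals of the groups labelled Bela.Siro, read here as belatacept, which blocks the CD28 ligands, with sirolimus, arrays of day 14 were paired with those of day 30 (R.38 and R.42) or day 29 (R.49), all in batch 3. The test of the difference between the 2 time courses gave 0 of 31710 probe sets (0%) with limma, the smallest adjusted p being 0.594, and 2501 (7.89%) at an unadjusted p under 0.05. Without R.38 it gave 136 calls, which then rest on 2 Bela.Siro animals. The 5 named genes with the smallest p were PCDH8, FCMR, TFDP1, STX16 and GCNT1. PCDH8, a protocadherin, differed between days by -0.56, 1.19, 0.48, -0.13 and -0.56 under KY1005 and sirolimus and by 2.62, 2.69 and 2.27 in the Bela.Siro animals, and its KY1005-sirolimus means were under the median of all values. FCMR, the Fc receptor for IgM, was higher in 5 of 5 KY1005-sirolimus animals (0.21 to 0.60) and lower in 3 of 3 others (-0.82 to -0.33). TFDP1, the partner of E2F factors, was lower in 5 of 5 (-0.48 to -0.32) and higher in 3 of 3 (0.22 to 0.94), but its second probe set gave 0.22 under KY1005 and sirolimus. GCNT1, an O-glycan branching enzyme, had mean differences of -0.35 and 1.44, a gap of -1.79 (95% interval -2.61 to -0.98). STX16, a syntaxin of the Golgi, had means of 0.56 and -0.97, a gap of 1.53 (0.84 to 2.21), and passed without R.38 (1.87, adjusted p = 0.0463 in limma).

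Of the genes leading the change within the KY1005-sirolimus animals, CD6 was lower in 3 of 3 Bela.Siro animals, by a mean difference of -0.63, with a gap of 1.62 (95% interval 0.77 to 2.48) and an adjusted p of 0.594. IL1B differed there by 1.79, -0.07 and -0.70, and LYZ by -3.70, -2.36 and 2.62. The actin ratio moved the opposite way in these animals, from 0.412 to 1.22, from 0.669 to 2.01 and from 1.64 to 2.15. With it as a covariate the gap of STX16 was 0.94 and that of GCNT1 -1.05. No animal received both regimens, and each regimen lies in its own batch. Pairing within an animal removes only a constant offset, so a difference between the time courses cannot be assigned to the drugs, the batch or the animals.

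**Figure D5:**
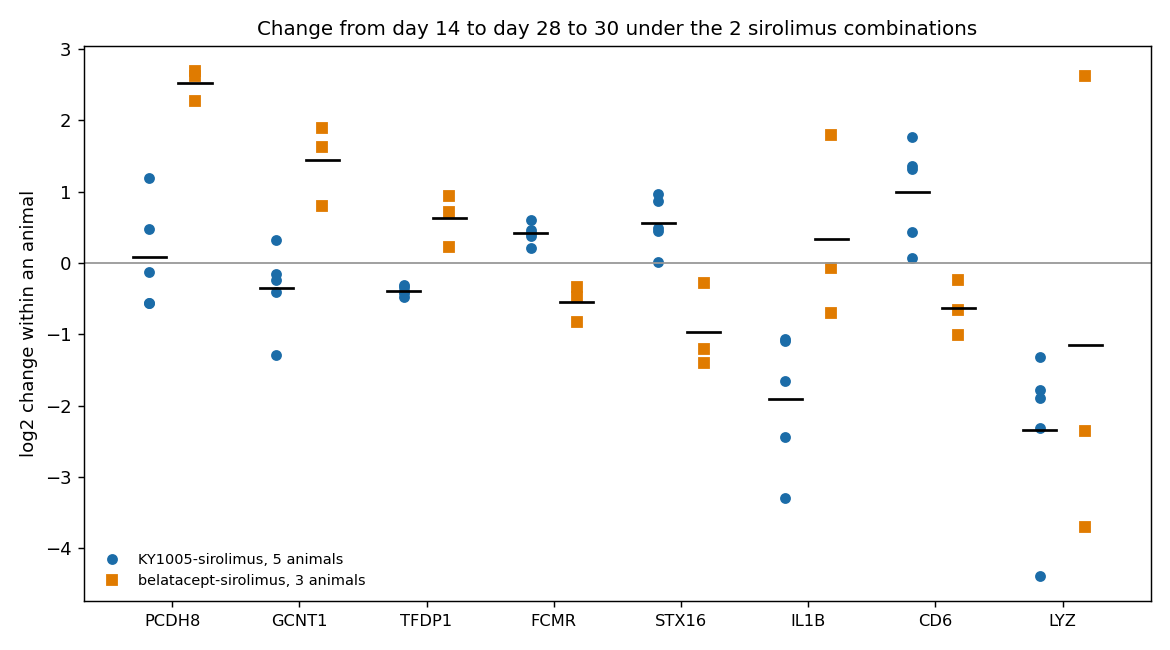
Log2 difference within each animal from day 14 to day 28 (KY1005-sirolimus, circles, 5 animals) or to day 29 or 30 (belatacept-sirolimus, squares, 3 animals) for the 5 genes with the smallest interaction p and for IL1B, CD6 and LYZ; black bars are means. For PCDH8, GCNT1, TFDP1, FCMR, STX16 and CD6 the points of the 2 regimens do not overlap, and none of these differences passed after adjustment. These genes were picked for a small p in the interaction or the day test, a choice that favours such separation. The share of all genes without overlap between the regimens was not computed.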

How the data were processed

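The arrays were Affymetrix rhesus macaque arrays hybridised with biotin-labelled RNA of CD3 T cells sorted from peripheral blood, and the authors' deposited table holds log2 values made by robust multi-array averaging (RMA) with affy, per the submitters' processing notes; versions and any adjustment for batch are not given in the sources used here, and the log2 scale was read from the values. Of 52865 probe sets, 24969 carry 1 gene name in the platform annotation, 361 several and 27535 none, and 24629 of the first matched the RefSeq gene table. After 99 control probe sets were left out, 31710 were kept because 3 or more arrays of the series were at or above 5.21, the median over the whole table. For each of 10718 genes the brightest probe set, on average, among those naming that gene alone stood for it. Array medians lay between 5.13 and 5.35, and the number of arrays limits the precision.

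Differences were tested in R 4.3.3 (limma 3.58.1) as changes within animals, the animal being a block, moderated statistics and Benjamini-Hochberg adjustment over all 31710 probe sets at 0.05. Pairing comes from the animal names in the labels; the deviations of paired arrays from their group means correlated at 0.23, 0.441, -0.0853, -0.0794 and 0.0578 in R.217 to R.221. The animals gave 1 array each per day, so p-values measure the spread between animals. Array scores were tested with an exact two-sided sign-flip permutation test, which cannot go below 0.0625 with 5 pairs. The scripts were tested on simulated data.

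Named genes were the 10 smallest p in each direction among genes that differed in the same direction in all 5 animals (leaving out genes of immunoglobulins, MHC, KIR and the T cell receptor), a set of 16 T cell genes, the 5 smallest interaction p, and others said in the text to be picked after their values had been seen; IRF8, CLEC10A, CD1C, HBB, the cell cycle, interferon and immediate early genes, CISH and IL10 beyond those sets were picked in that way too. The arrays, the 35 gene lists and the alternatives were chosen with earlier results of these data known. The alternatives changed the block, the arrays in the fit, the filter, the variance prior, array weights, normalization, the size of change, the animals, RNA quality and myeloid covariates, and the use of probe sets.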

Additional observations from a re-analysis of the deposited data

Results flagged for a closer look

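Of 124 differences and list medians with 5 animals each, 11 had 1 animal far from the other 4. Chance gives about 1 in 20 for independent normal values. These results share the same animals, the lists hold some of the genes, and many genes were picked after their values had been seen. The 11 therefore cannot be read as an excess over chance. R.219 was apart for S100A8 (-4.92, the others between -1.66 and -0.347), for MCM3 (0.365, the others between -0.918 and -0.772), for OAS1 (-0.0328, the others between 0.33 and 0.454) and for the median of the cytotoxic list (1.46, the others between -0.618 and -0.0408). R.217 was apart for CSF1R (-2.65, the others between -0.777 and -0.288), for ATF3 (-1.68, the others between -0.348 and -0.225) and for the median of the erythroid list (1.54, the others between -0.097 and 0.211). R.221 was apart for REL (2.11, the others between 0.0037 and 0.609), for the median of the naive and quiescence list (1.09, the others between -0.00682 and 0.242) and for the mean level of the B cell markers (-0.431, the others between -0.0841 and 0.0388). R.220 was apart for KLF4 (-0.018, the others between -2.25 and -1.61).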

How the results depend on the processing

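With 5 pairs of arrays, 0 calls were made with limma under every alternative within the KY1005-sirolimus arrays, and with all 16 groups and the animal as a fixed block, an alternative chosen after seeing the data; all 16 groups with batch gave 3 calls, and 3 with the animal as a random block. Without the replicate block, the pairing by animal left out, there were 0 calls and 2968 probe sets at an unadjusted p under 0.05 (2912 with it). That count was 4447 without a filter, 225 with at least a 2-fold difference, 847 with the actin ratio as a covariate, 872 with the GAPDH ratio (chosen after seeing the data), and 868 when the probe sets of a gene were averaged, which counts genes, 660 of them in the main setting. Leaving out 1 animal gave 1358 (R.217) to 4034 (R.219). The comparison with Bela.Siro gave 0 to 136 calls with 1 animal left out, 136 without R.38, and 0 in its other alternatives. The cause was not tested in these cases. No animal had an actin ratio above the planned limit of 2.5, so leaving out such animals changed nothing.

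Signs turned for 16 of 78 named genes in settings that kept all animals, none of them past the threshold. With array weights TNFRSF4 was at 0.00566, GZMB at -0.0233 and IFNG at 0.0243, and with further quantile normalization, which put the median of all genes at -0.079, GZMB was at -0.00975. With the actin ratio TNFRSF4 was at 0.205, GZMB at -0.0227, IFNG at 0.277, CCR7 at -0.371, SOCS2 at -0.387 and SERPINA1 at -0.0977. With the GAPDH ratio TNFRSF4 was at 0.366, MKI67 at 0.00836, IFNG at 0.512, CCR7 at -0.244, SOCS2 at -0.272, GCNT1 at 0.0756 and CD28 at -0.00676. With the myeloid level GZMB was at -0.613, SERPINB2 at 1.18, S100A8 at 0.919, S100A9 at 1.35, VCAN at 0.614, CD68 at -0.298 and FOS at -0.279. With probe sets averaged CD8A was at 0.182 and CD68 at -0.342. With 1 animal left out, 10 genes turned: TNFRSF4 ran from -0.355 to 0.116, FOXP3 from -0.0546 to 0.226, GZMB from -0.299 to 0.26, IFNG from -0.529 to 0.231, PCDH8 from -0.191 to 0.247, CD68 from -0.12 to 0.416, IFIT1 from -1.37 to 0.13, MX1 from -1.09 to 0.272, IFI27 from -1.45 to 0.1 and ISG15 from -0.984 to 0.16.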
